A study of Mus musculus with 12 samples.

Results

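The 9 genes described here are known from trophoblast, the lineage that forms the placenta, and were followed across the anterior and posterior parts of mouse embryos at the start of head formation. They are Elf5, Esrrb, Ascl2, Tpbpa, Gcm1, Esx1, Rhox5, Rhox6 and Rhox9, chosen by name after their levels by embryo part and by pool in these data were known. The measured values that selected them are therefore the anterior and posterior levels and the spread between pools, which are given here as a description with no test. Of the 9 genes, 7 were found by name in the table used here, with 11 probes among 30344, and Gcm1 and Rhox5 were not analysed here. Probes were analysed further where 3 or more of the 12 arrays had a detection p below 0.05, and 7 of the 11 probes, from 5 genes, did.

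The 12 Illumina bead arrays fell into 4 groups of 3. Lhx1epiCKO embryos carried Lhx1-/flox with Meox2+/Cre, and control embryos carried Lhx1+/flox with the same Meox2+/Cre, so every embryo had the Cre allele and 1 floxed Lhx1 allele. Meox2-Cre acts in the epiblast, the source of the embryo proper, and not in the trophoblast lineage. All embryos were at E7.75, between the early bud and early head-fold stages. Anterior and posterior regions of the epiblast were dissected apart, and 5 pieces of 1 kind were pooled for each sample. The labels call the 3 samples of a group biological replicates and give the tissue of all 12, posterior ones included, as embryonic head.

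At this stage the extraembryonic ectoderm sits above the embryonic part of the conceptus and is not a derivative of the epiblast. It holds the trophoblast stem cells, which depend on transcription factors such as ELF5, ESRRB, CDX2 and EOMES. Cells that leave it enter the ectoplacental cone, marked by Ascl2 and then Tpbpa, and later the labyrinth, marked by Gcm1 and Esx1. Levels below are the deposited normalized log2 values, on which a step of 1 is a doubling, and the probe floor lay near 6.8. The lowest signal of a detected probe was 6.77 to 6.81 on anterior arrays and 6.83 to 6.87 on posterior arrays. Detection thus needed a higher signal on posterior arrays, so counts of detected arrays near the floor are not like for like between the parts. In pooled tissue, fewer cells of a type and less RNA per cell cannot be told apart.

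Elf5 and Esrrb carried the pattern described below, so the promoters of their annotated start sites are shown, each running from 250 bases before to 50 bases after a RefSeq start (GRCm38.p6), 5′ to 3′ on the gene's strand, with CpG dinucleotides in capitals.
Elf5, first start, chr2:103411848-103412147, plus strand: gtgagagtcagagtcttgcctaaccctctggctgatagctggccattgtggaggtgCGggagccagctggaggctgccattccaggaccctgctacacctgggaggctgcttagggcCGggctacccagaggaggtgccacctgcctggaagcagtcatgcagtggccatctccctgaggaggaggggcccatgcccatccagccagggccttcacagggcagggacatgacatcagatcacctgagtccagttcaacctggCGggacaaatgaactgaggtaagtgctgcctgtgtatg
Elf5, second start, chr2:103423818-103424117, plus strand: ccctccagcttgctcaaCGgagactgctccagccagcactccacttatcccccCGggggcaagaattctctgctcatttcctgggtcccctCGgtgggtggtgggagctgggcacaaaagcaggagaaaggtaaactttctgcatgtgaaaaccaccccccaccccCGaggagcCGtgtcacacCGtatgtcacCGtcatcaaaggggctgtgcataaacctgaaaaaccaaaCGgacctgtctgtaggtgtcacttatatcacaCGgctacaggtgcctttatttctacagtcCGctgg
Esrrb, first start, chr12:86360867-86361166, plus strand: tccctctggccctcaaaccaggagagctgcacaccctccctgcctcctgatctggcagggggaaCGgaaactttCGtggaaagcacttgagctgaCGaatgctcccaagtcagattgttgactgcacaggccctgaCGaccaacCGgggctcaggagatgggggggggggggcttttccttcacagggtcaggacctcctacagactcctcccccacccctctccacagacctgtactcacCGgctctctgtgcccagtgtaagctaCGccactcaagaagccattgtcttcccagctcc
Esrrb, second start, chr12:86421394-86421693, plus strand: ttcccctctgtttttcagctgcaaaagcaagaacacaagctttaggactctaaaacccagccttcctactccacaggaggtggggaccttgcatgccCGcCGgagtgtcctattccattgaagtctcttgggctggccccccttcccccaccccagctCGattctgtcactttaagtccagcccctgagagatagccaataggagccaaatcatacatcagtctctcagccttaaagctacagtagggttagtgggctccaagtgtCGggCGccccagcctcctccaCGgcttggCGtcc
The Elf5 windows held 3 and 10 CpG, and both Esrrb windows held 7, against a median of 7 (quartiles 3 and 20) over 32851 RefSeq promoters of the same length. The estrogen-related receptor element AAGGTCA, the ETS element CCGGAAG and the AP-2 element GCCNNNGGC were searched on both strands, and no match lay in these 4 windows. They occurred in 4.72%, 8.86% and 16.6% of all promoters. RefSeq promoters matched 7 of the 9 genes by symbol, and Ascl2 and Esx1, with 23 and 24 CpG, were the richest in CpG of these 7.

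Facts that touch all groups come first. Anterior arrays detected more probes than posterior arrays, with 15416 to 16238 on anterior arrays and 14243 to 14869 on posterior arrays. Otx2, a gene of the anterior epiblast and head, was at 9.94 to 10.41 in anterior Lhx1epiCKO samples and 11.20 to 11.60 in anterior controls, against 7.08 to 8.48 and 7.94 to 8.79 in the posterior Lhx1epiCKO and control samples, so the posterior parts did not carry the level of a head marker. Among posterior Lhx1epiCKO samples, replicate 3 stood apart, with 785 probes further than 1 log2 unit from the average of its group's other samples. Lhx1 read 6.65 to 7.30 in the 6 Lhx1epiCKO samples and 8.13 to 8.54 in 5 controls, but 6.90 in posterior control replicate 2, against its label. Leaving out both samples moved the anterior minus posterior difference of Elf5 only to 1.04 in Lhx1epiCKO embryos (1.01 with them) and 1.32 in controls (1.35 with them), and that of Esrrb to 1.26 (1.25) and 1.49 (1.45).

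Elf5, the ETS-family factor that keeps cells in the trophoblast lineage, was detected on all 6 anterior arrays and on none of the 6 posterior arrays. Its brightest probe (ILMN_2736380) read 7.37, 7.11 and 8.41 in the anterior Lhx1epiCKO samples, replicates 1 to 3, and 6.82, 8.01 and 8.90 in the anterior controls. It read 6.73, 6.45 and 6.68 in the posterior Lhx1epiCKO samples, and 6.65, 6.51 and 6.53 in the posterior controls. Every anterior value lay above every posterior value, and the 6 posterior values were all at the level of undetected probes. The anterior mean exceeded the posterior mean by 1.01 ± 0.41 (SE) in Lhx1epiCKO embryos and by 1.35 ± 0.41 in controls, n = 3 samples per group. Each SE here and below uses 1 spread shared over the 4 groups, although the anterior pools varied far more in Elf5 than the posterior ones. Since the posterior side was not above background, the measured anterior signal was at least 1.71-fold higher in Lhx1epiCKO embryos and at least 2.10-fold higher in controls, set against the dimmest detected probe of each posterior array.

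The anterior pools differed widely from each other. Within 1 group the brightest Elf5 probe spanned 1.30 log2 units among anterior Lhx1epiCKO samples and 2.08 among anterior controls, against 0.28 and 0.14 among posterior Lhx1epiCKO and posterior control samples. The posterior values were all undetected, so their span does not measure how Elf5 varied there. The lowest anterior value, 6.82 in control replicate 1, lay close to the highest posterior value of 6.73. It counted as detected on its own array but lay below the lowest detected signal of each posterior array (6.83 to 6.87). Without the highest array of a group, replicate 3 in each, the anterior minus posterior difference of Elf5 was 0.62 in Lhx1epiCKO embryos and 0.85 in controls. Leaving out a sample could not change its sign, since anterior and posterior values did not overlap.

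The other Elf5 probes were dimmer. ILMN_2938440 was detected on 3 anterior arrays, Lhx1epiCKO replicate 3 and control replicates 2 and 3, and on no posterior array. It read 6.58, 6.68 and 6.99 in anterior Lhx1epiCKO samples and 6.63, 6.80 and 6.98 in anterior controls, with 6.40 to 6.66 over the 6 posterior samples. The arrays that were highest for the brightest probe were highest here too. The third probe, ILMN_2669510, was detected on no array and read 6.38 to 6.75.

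Esrrb, an orphan nuclear receptor that maintains trophoblast stem cells and also acts in naive pluripotent and germ cells, followed Elf5. It read 7.73, 7.54 and 8.78 in the anterior Lhx1epiCKO samples, and 7.50, 8.31 and 9.22 in the anterior controls. In the posterior parts it read 6.83, 6.69 and 6.79 in Lhx1epiCKO samples, none of them detected, and 6.71, 6.98 and 7.00 in controls, of which replicates 2 and 3 were detected. Anterior and posterior values did not overlap in either genotype. The anterior excess was 1.25 ± 0.36 (SE) in Lhx1epiCKO embryos, at least 2.24-fold over the posterior background, and 1.45 ± 0.36 in controls, a 2.73-fold difference.

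Elf5 and Esrrb varied together from pool to pool. Both genes placed the 6 anterior arrays in the same order, from control replicate 3 through Lhx1epiCKO replicate 3, control replicate 2, Lhx1epiCKO replicate 1 and Lhx1epiCKO replicate 2 to control replicate 1. Pearson's r over these 6 arrays was 0.99 and Spearman's rho 1.00, and r was 0.997 over the 4 left when the 2 arrays farthest from the median of Elf5 were taken out. Over the 6 posterior arrays, where Elf5 was at background, r was -0.17. The 6 anterior arrays share their tissue, and the correlation is a description with no test.

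**Figure D1:**
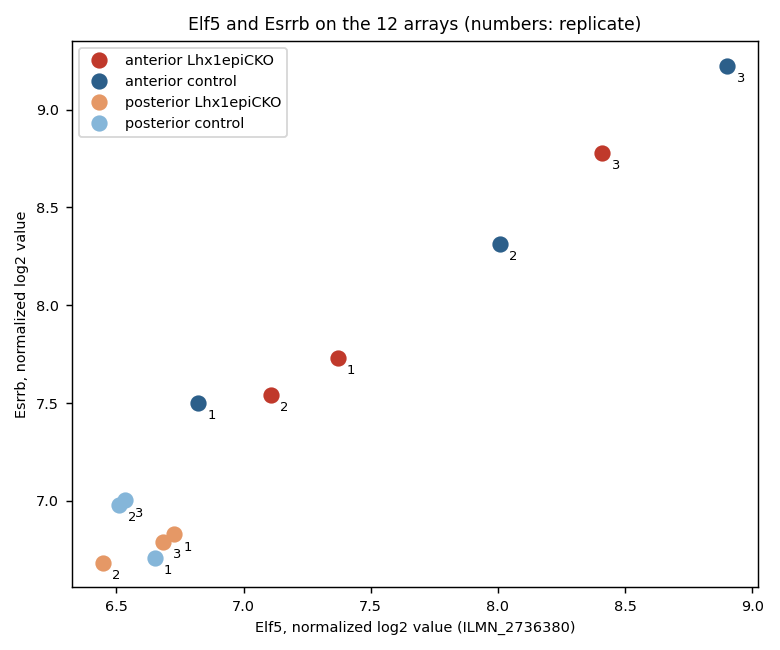
Normalized log2 value of Esrrb (vertical) against the brightest Elf5 probe (horizontal) on the 12 arrays, coloured by group, with the replicate number beside each point. The 6 anterior arrays run along a line from 6.82 to 8.90 for Elf5 and 7.50 to 9.22 for Esrrb, and the 6 posterior arrays lie in the lower left corner.

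Ascl2, a basic helix-loop-helix factor needed for the ectoplacental cone and spongiotrophoblast, stayed near the floor in all groups. Probe ILMN_2919900 read 6.84, 6.92 and 6.82 in anterior Lhx1epiCKO samples and 6.77, 6.84 and 6.83 in anterior controls, and 6.68, 6.84 and 6.80 in posterior Lhx1epiCKO samples and 6.64, 6.77 and 6.71 in posterior controls. It was detected on 5 anterior arrays and on 1 posterior array, where detection needed a higher signal, and the anterior and posterior values overlapped. A second probe, ILMN_2750349, was detected on 2 anterior arrays, both Lhx1epiCKO, and on 1 posterior control array. The third, ILMN_2515236, was detected on none.

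Tpbpa, a marker of the ectoplacental cone and spongiotrophoblast, was detected on no array and read 6.39 to 6.71. Esx1, a homeobox gene of the labyrinth, was also detected on no array and read 6.47 to 6.81. Thus neither gene of the more differentiated trophoblast gave a signal above background in either embryo part, on arrays that detected 46.9% to 53.5% of all probes.

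Rhox6 and Rhox9 are neighbouring homeobox genes of the X-linked Rhox cluster, known from placenta and germ cells. Rhox6 was detected on all 12 arrays, and its widest spread was among posterior controls (SD 0.25, against a median of 0.146 over all probes of that group). It read 7.47, 7.37 and 7.39 in anterior Lhx1epiCKO samples and 7.31, 7.47 and 7.37 in anterior controls, against 7.21, 7.35 and 7.24 in posterior Lhx1epiCKO samples and 7.48, 7.21 and 6.99 in posterior controls. The anterior excess was 0.14 ± 0.12 (SE) in Lhx1epiCKO embryos, where the samples did not overlap, and 0.16 ± 0.12 in controls, where they did. Rhox9 read 6.81, 6.66 and 7.11 in anterior Lhx1epiCKO samples, 6.79, 7.22 and 7.11 in anterior controls, 6.58, 6.84 and 6.69 in posterior Lhx1epiCKO samples and 6.54, 7.08 and 6.66 in posterior controls. It was detected on 4 anterior and 2 posterior arrays, and its values overlapped between the parts in both genotypes. Its highest posterior value, 7.08, came from posterior control replicate 2, whose Lhx1 level goes against its label. Over the anterior arrays Rhox9 had r = 0.83 with Elf5 and Rhox6 had r = 0.21, each over 6 arrays and with no test.

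**Figure D2:**
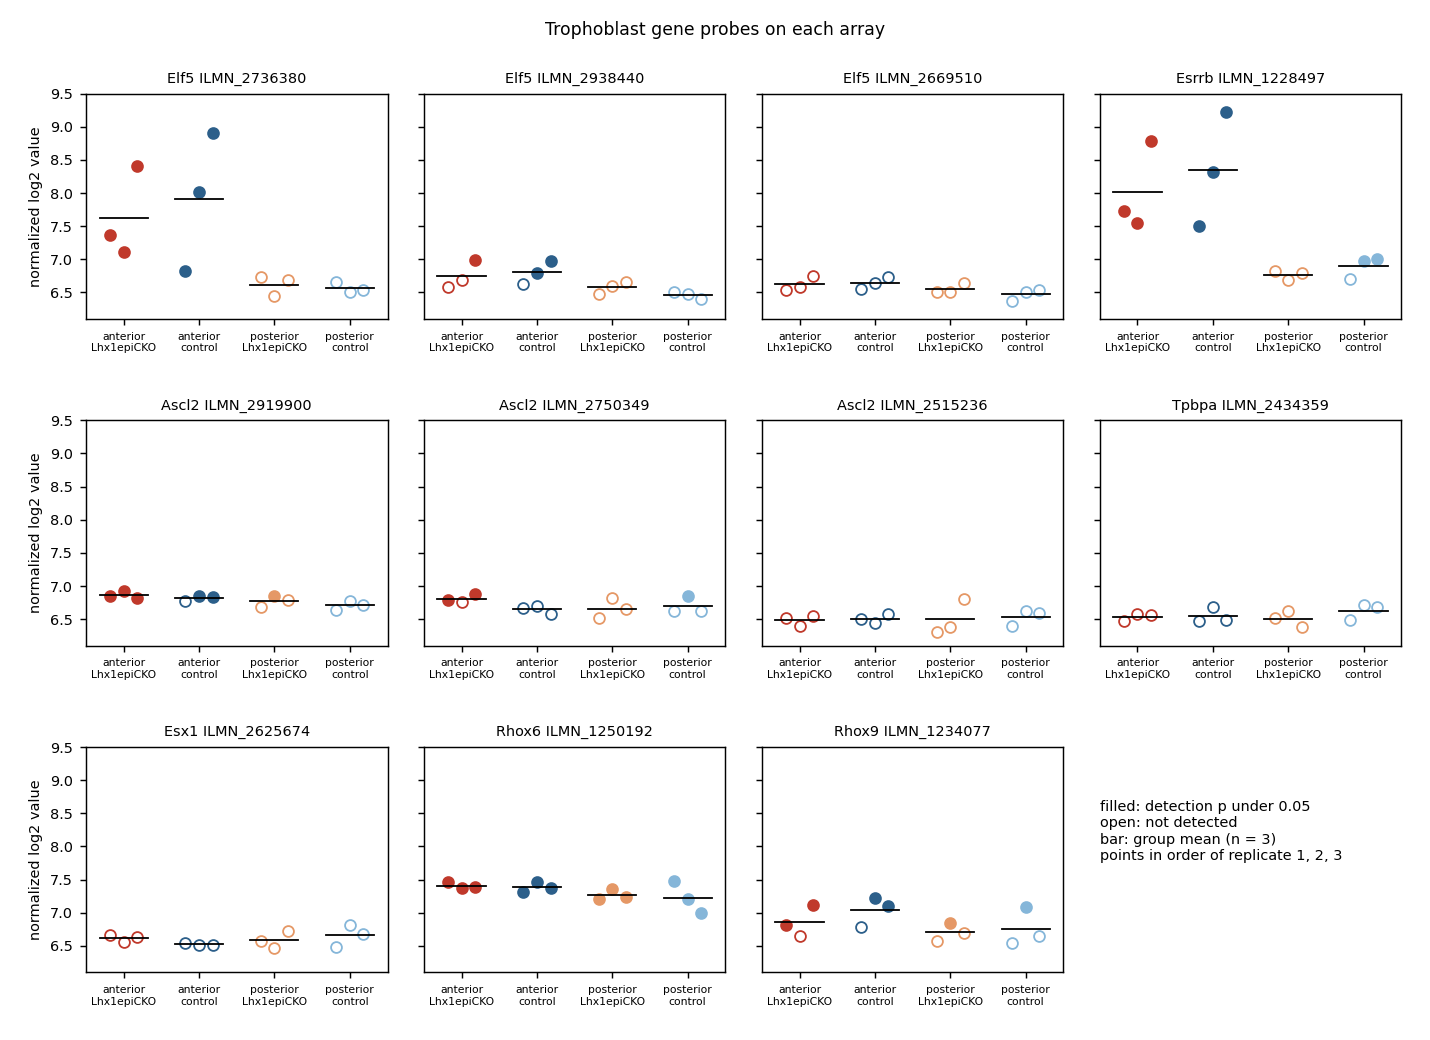
Normalized log2 value of each of the 11 probes (1 panel a probe) on the 12 arrays, grouped as anterior Lhx1epiCKO, anterior control, posterior Lhx1epiCKO and posterior control, with replicates 1 to 3 from left to right. Filled points have a detection p under 0.05, open points do not, and bars are group means. The brightest Elf5 probe and Esrrb are filled and scattered between 6.82 and 9.22 in the anterior groups, and Tpbpa and Esx1 are open throughout.

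Counted over the 7 probes that passed the detection filter, 3 had anterior values wholly above posterior ones in Lhx1epiCKO embryos (Elf5, Esrrb and Rhox6) and 3 in controls (Esrrb and both Elf5 probes). Of all 17041 probes, 10.6% had anterior values wholly above posterior ones in Lhx1epiCKO embryos and 13.3% in controls. When all probes were tested with limma, 0.417% were called higher in the anterior part of Lhx1epiCKO embryos and 0.851% lower, and in controls 1.36% were called higher and 1.65% lower, at a Benjamini-Hochberg adjusted p under 0.05. The 7 probes were put forward with this contrast in view and passed the filter mostly through the anterior arrays, so nothing is read from these counts. By array, 6, 4 and 7 of the 11 probes were detected in anterior Lhx1epiCKO samples, 3, 6 and 6 in anterior controls, 1, 3 and 1 in posterior Lhx1epiCKO samples and 1, 4 and 2 in posterior controls. These counts also carry the lower signal needed for detection on anterior arrays.

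The spread of Elf5 and Esrrb between pools stood at the edge of the whole array. In anterior controls the SD of the brightest Elf5 probe was 1.04, the highest of all 17041 probes, against a median SD of 0.0976, and Esrrb came next with 0.86. In anterior Lhx1epiCKO samples 7 probes had a higher SD than Elf5 (0.69) and 10 a higher SD than Esrrb (0.67), against a median of 0.0852. Xist had the highest SD of that group (1.13) and read 8.39, 6.57 and 8.65 in replicates 1 to 3, the same order of pools as Elf5. It was not among the 12 most variable probes of anterior controls. The streak genes Wnt3a, Evx1 and Mixl1 also had a higher SD than Elf5, and Wnt3a read 8.11, 8.49 and 9.92 in anterior Lhx1epiCKO replicates 1 to 3. The summed linear level of an 11-gene streak list was 4087, 4789 and 7904 in these samples, highest in the same replicate 3 as Elf5, and 3230, 3579 and 3554 in anterior controls. The part of streak tissue in the spread of Elf5 was not tested, nor was a link to Xist. The posterior SD of both genes was far smaller. That of Elf5 was 0.15 in Lhx1epiCKO samples (median 0.206) and 0.08 in controls (median 0.146), and that of Esrrb was 0.07 in Lhx1epiCKO samples and 0.16 in controls. Elf5 was detected on no posterior array and Esrrb on 2, so these SDs cannot show whether posterior pools differed in either gene. Of the 12 most variable probes in each anterior group, 6 were the same, 50% of each list, and these were Elf5, Esrrb, Dppa4, Tmem114, Fam183b and Lefty2. Fam183b read 8.43, 8.78 and 7.49 in anterior Lhx1epiCKO samples and 8.70, 7.60 and 7.74 in anterior controls, so within each genotype it was highest in the pool where Elf5 was lowest. These lists were drawn up after the values were seen.

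**Figure D3:**
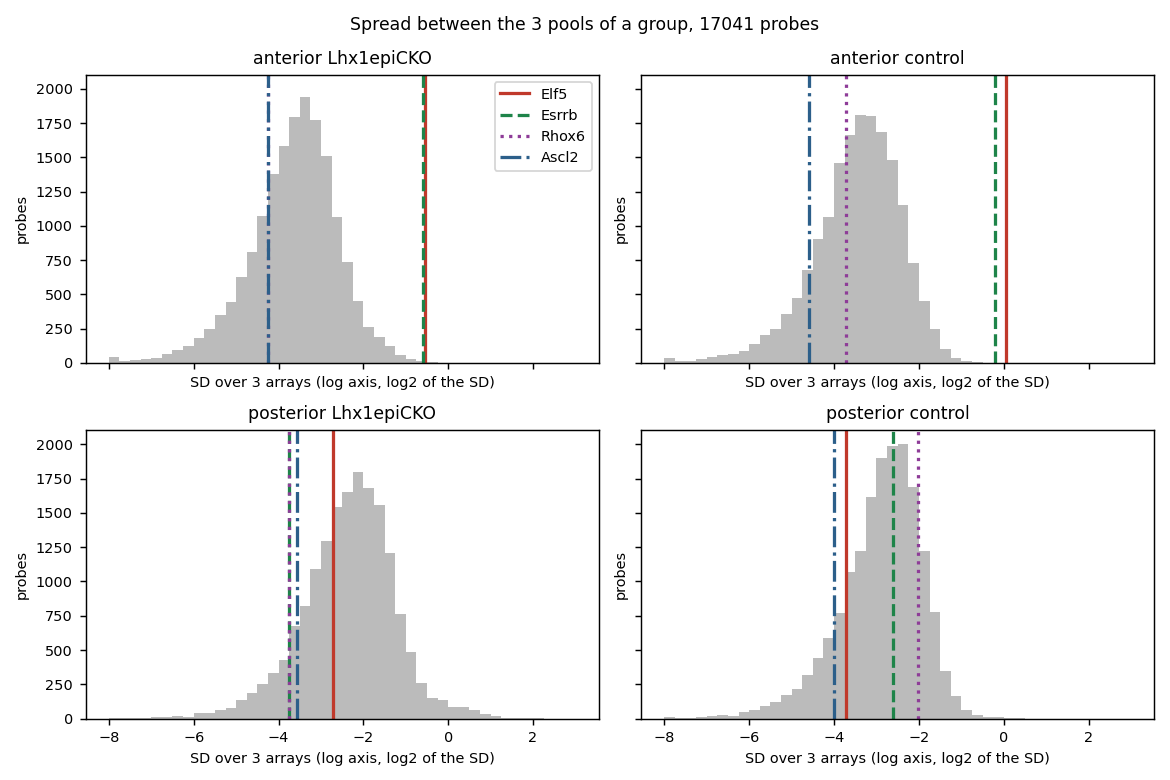
Number of probes (vertical) by the SD of the log2 value over the 3 arrays of a group (horizontal, log axis labelled in log2 of the SD), in 4 panels for the 4 groups, with vertical lines at the brightest Elf5 probe, Esrrb, Rhox6 and the brighter Ascl2 probe. Elf5 and Esrrb lie at the right edge in the anterior groups only, at 0.69 and 0.67 in Lhx1epiCKO samples and 1.04 and 0.86 in controls. Most posterior values of these genes were undetected.

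The likeness of profiles was taken as Pearson's r over the 12 arrays, which holds the step between the embryo parts as well as the spread between pools. Wnt7b, a secreted WNT ligand made by extraembryonic ectoderm, was the most like Elf5 (r = 0.97 over 12 arrays and over the 6 anterior arrays). It read 7.19, 7.02 and 8.07 in anterior Lhx1epiCKO samples and 6.98, 7.41 and 8.45 in anterior controls, and was detected on all 6 anterior arrays and on no posterior array. Dppa4, a nuclear protein of pluripotent and germ cells, was the most like Esrrb (r = 0.98 over 12 and over 6 arrays). It read 7.58, 7.52 and 8.82 in anterior Lhx1epiCKO samples and 7.48, 8.10 and 8.85 in anterior controls, against 6.69 to 7.13 and 6.80 to 7.00 in the posterior Lhx1epiCKO and control samples.

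Further genes near the top of these rankings, named after their values were seen apart from Fabp3, shared with Elf5 the 3 highest anterior arrays, in varying order. Fabp3, a fatty acid-binding protein, read 9.05, 8.68 and 9.85 in anterior Lhx1epiCKO samples and 8.64, 9.41 and 9.76 in anterior controls, and its posterior group means were 8.01 and 8.03. Dnmt3l, a cofactor of the de novo DNA methyltransferases, read 8.47, 8.24 and 9.49 in anterior Lhx1epiCKO samples and 8.46, 8.82 and 9.23 in anterior controls, with posterior means of 7.54 and 7.51. Rhox4d, another gene of the Rhox cluster whose copies are nearly alike and may share the probe, read 7.00 to 7.56 in anterior Lhx1epiCKO samples and 6.88 to 7.48 in anterior controls, and was detected on 1 posterior array. Of the 12 probes most like the brightest Elf5 probe or Esrrb, 10 had replicate 3 of each genotype as their highest anterior arrays, and 11 shared the top 3 arrays of Elf5. The ranking chose these probes for that order. The mean of the 7 member probes was most like Dusp16 (r = 0.94), Mfsd6, Fabp3, Bclaf1 and Prr15l, Rhox6 was most like Fam65c, Rhox9 most like Dyrk3 and the Ascl2 probes most like Crk and Tnfrsf10b, with r from 0.87 to 0.91 for these 4 over the 12 arrays.

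**Figure D4:**
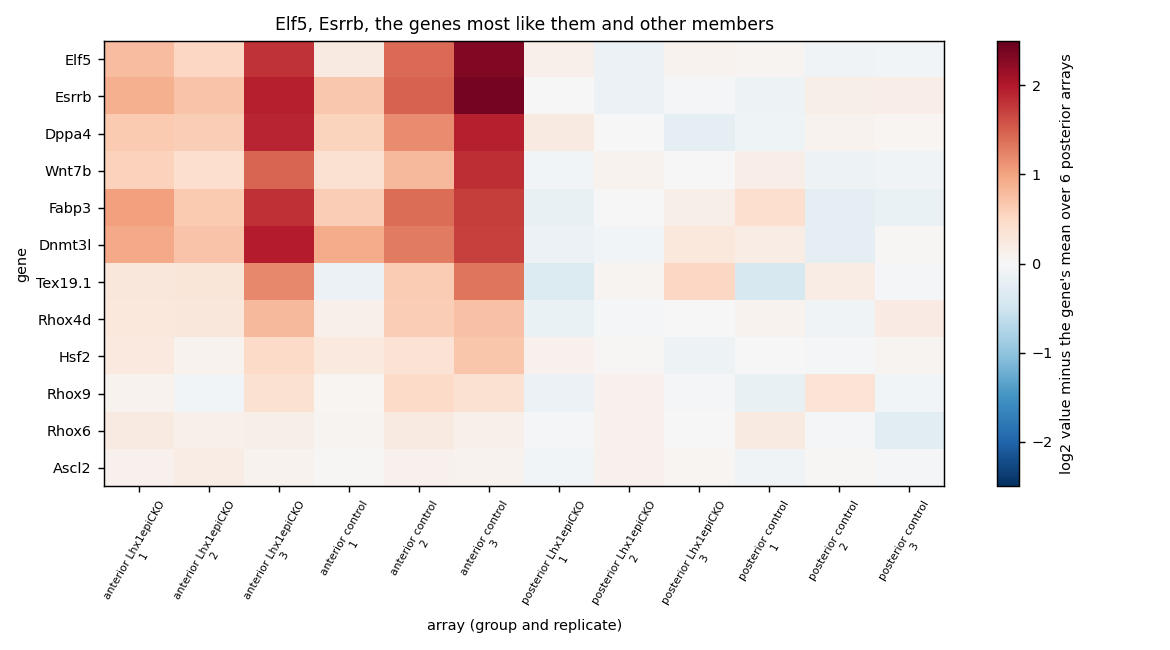
Log2 value minus the gene's own mean over the 6 posterior arrays (colour, red higher) for 12 genes (rows) on the 12 arrays (columns, by group and replicate). Elf5, Esrrb, Dppa4, Wnt7b, Fabp3 and Dnmt3l are reddest in both anterior replicate 3 columns, whereas Rhox6 and Ascl2 stay near 0 on all arrays.

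A list of 29 other trophoblast genes, drawn up as a more restricted set, was read next. Of these, 25 had a probe and 8 passed the detection filter, 17 did not and 12 were detected on no array, among them Syna and Synb (the syncytins), Prl3d1 and Prl3b1 (placental lactogens), Ctsq, Cts7, Cts8 and Fosl1. Plet1, a surface marker of early trophoblast, was detected on 1 array. In the anterior against the posterior part, 1 of the 8 genes was called higher and 2 lower in Lhx1epiCKO embryos, and 1 higher and 2 lower in controls, and the median differences were 0.14 and -0.31 against 0.01 and 0.02 over all probes. Sox21, a SOX-family gene of extraembryonic ectoderm and of the neural plate, was 1.47 ± 0.19 (SE) higher in the anterior part of Lhx1epiCKO embryos (adjusted p = 0.00134) and 1.59 ± 0.19 higher in that of controls (adjusted p = 0.000234). With its known site in the neural plate, Sox21 is not restricted to trophoblast. Sct, which encodes the hormone secretin, was lower in the anterior part by a difference of -1.54 (adjusted p = 0.000602) in Lhx1epiCKO embryos and -1.39 (adjusted p = 0.000398) in controls. Ada, adenosine deaminase, differed by -0.67 (adjusted p = 0.0029) and -0.58 (adjusted p = 0.00418) in the same order. Wnt7b, at 0.80 ± 0.32 in Lhx1epiCKO embryos and 1.02 ± 0.32 in controls, did not pass (adjusted p = 0.332 and 0.136). Against the posterior background its anterior signal was at least 1.49-fold higher in Lhx1epiCKO embryos and at least 1.71-fold higher in controls. Plac1 did not pass in controls (-0.58, adjusted p = 0.0599).

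Pool by pool, only part of that list followed Elf5 over the 6 anterior arrays. Wnt7b was at r = 0.97, Sox21 was at 0.78, and 4 of the 8 genes were below 0, Sct among them at -0.51. The summed level of the 8 genes on a linear scale ranged over 2211 to 2743 in anterior Lhx1epiCKO samples and 2244 to 2753 in anterior controls, against 2614 to 2880 and 2310 to 2947 in the posterior Lhx1epiCKO and control samples. These ranges overlapped between the embryo parts in both genotypes. The mean log2 level of the list had r = 0.80 with Elf5 over the 6 anterior arrays, across a range of 0.30 log2 units.

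Of 24 trophoblast genes with other known sites in the embryo, 23 passed the filter. In Lhx1epiCKO embryos 0 were called higher (5 at an unadjusted p under 0.05 in limma) and 2 lower in the anterior part, and in controls 4 were higher and 2 lower, with median differences of 0.14 and 0.05. Cdx2, a homeobox factor of both trophoblast and posterior embryo, was lower, with a difference of -2.03 (adjusted p = 0.00069) in Lhx1epiCKO embryos and -3.12 (adjusted p = 6.66e-06) in controls. Bmp4, which the extraembryonic ectoderm secretes and the posterior mesoderm also makes, was lower, with a difference of -0.93 in Lhx1epiCKO embryos (adjusted p = 0.0185) and -1.03 in controls (adjusted p = 0.00486). Of the 4 genes called higher in controls, Utf1, Fgfr2 and Sox2 had the smallest p, and the epiblast or neural plate also express them. They were higher by 1.73 (adjusted p = 0.000695), 1.08 (adjusted p = 0.00326) and 0.61 (adjusted p = 0.00428). The remaining gene of the 4 is not described here, so the sites named do not cover all of them. Eomes, a T-box factor of trophoblast stem cells and of the streak, differed by 0.14 and 0.11 with adjusted p = 0.836 and 0.924. Over the anterior arrays, Bmp8b (r = 0.98), Pcsk6 (0.93), Zfp42 (0.92) and Peg3 (0.85) varied most like Elf5, 4 of the 23 above 0.8 and 6 below 0, a description of genes picked after their values were seen. Bmp8b, a BMP ligand of extraembryonic ectoderm, read 6.80, 6.65 and 7.16 in anterior Lhx1epiCKO samples and 6.60, 6.92 and 7.49 in anterior controls.

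Neighbouring tissues were measured by further lists, and the part of these tissues in the values of Elf5 and Esrrb was not tested. The streak list, 11 genes such as Wnt3a and Cdx1, had 8 genes lower in the anterior part of Lhx1epiCKO embryos and 9 in that of controls, and the anterior neuroectoderm list had 4 of 6 higher in each, Otx2 by 2.48 (adjusted p = 0.000998) and 2.92 (adjusted p = 9.1e-05). Extraembryonic mesoderm, with allantois and amnion, had 1 of 13 genes lower in Lhx1epiCKO embryos and 2 in controls, and Tbx4 of the allantois was lower in both. In Lhx1epiCKO embryos, where 1 of 3 anterior arrays detected it, the difference was -2.17 (adjusted p = 0.00033), and in controls, where no anterior array did, it was at least 4.89-fold lower (adjusted p = 3.26e-05). Of 12 visceral endoderm genes, 0 were called in Lhx1epiCKO embryos (2 lower at an unadjusted p under 0.05 in limma) and 1, Lgals2, was lower in controls (-1.03, adjusted p = 0.0036). Their summed level on a linear scale was 46165 to 46498 in anterior Lhx1epiCKO samples and 42556 to 46905 in anterior controls, against 27939 to 48065 and 46642 to 52480 in the posterior Lhx1epiCKO and control samples. The lowest of these, 27939, was posterior Lhx1epiCKO replicate 3, which stood apart, and the other samples of its group had 48025 and 48065. Of 8 genes of the maternal decidua 0 were called in either genotype (0 in Lhx1epiCKO embryos and 1 in controls at an unadjusted p under 0.05 in limma), and their mean lay at 6.80 to 6.90 on anterior and 6.69 to 6.81 on posterior arrays, near the floor. Naive pluripotency and germ cell genes, the other setting of Esrrb, had 1 of 9 lower in Lhx1epiCKO embryos and 2 in controls and none higher, with differences of -1.19 for Klf5 (adjusted p = 0.00538) and -1.20 (adjusted p = 0.0029). Over the 6 anterior arrays the mean log2 level of the 8 lists, both trophoblast lists included, spanned from 0.09 (decidua) to 1.22 (streak). The mean of the visceral endoderm list had r = 0.90 with Elf5 while spanning 0.16 log2 units, that of the second trophoblast list r = 0.93 with a span of 0.22, and that of the germ cell list r = -0.30. With the log2 of the summed level in place of the mean, r was 0.69, 0.11 and -0.16 in the same order.

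**Figure D5:**
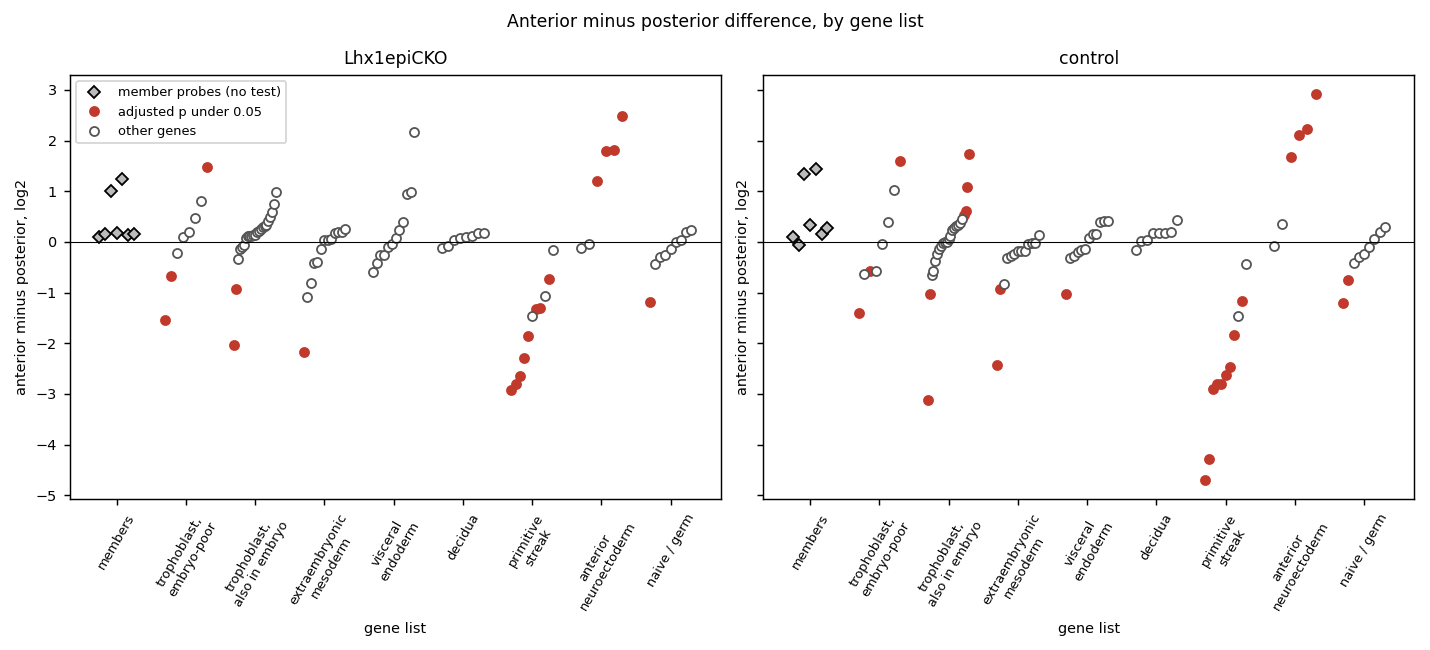
Anterior minus posterior difference on the log2 scale (vertical) of the 7 member probes (diamonds, no test) and of each gene of 8 lists (circles, filled where the adjusted p was under 0.05), for Lhx1epiCKO embryos on the left and controls on the right. The brightest Elf5 probe and Esrrb lie between 1.01 and 1.45, while the primitive streak genes lie below 0 and 4 anterior neuroectoderm genes above 1.

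Between genotypes no member probe was called by the limma test over all 17041 probes. In the anterior part 0 of 7 were called, where 0.0704% of all probes were, and 0 of 7 were called in the posterior part, as for the change of the genotype effect between parts, where 0% of all probes were. No member had an unadjusted p under 0.05 in any of the 3 contrasts, and of all 17041 probes 329, 1643 and 581 did. With such small shares over all probes, 0 of 7 lies near the background, so nothing is read from it. Elf5 was at 7.63 ± 0.69 (SD) in anterior Lhx1epiCKO samples and 7.91 ± 1.04 in anterior controls, a difference of -0.28 ± 0.41 (SE, adjusted p = 1). Esrrb was at 8.02 ± 0.67 (SD) in anterior Lhx1epiCKO samples and 8.35 ± 0.86 in anterior controls, a difference of -0.33 ± 0.36 (SE, adjusted p = 1). These SEs use 1 spread shared over all groups, posterior ones included, so they are smaller than the anterior SDs alone would give. Both differences were smaller than the spread between pools of 1 genotype, and without anterior control replicate 3 they turned to 0.21 and 0.11.

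The other members gave small differences. Rhox9 differed by -0.18 ± 0.17 and Rhox6 by 0.03 ± 0.12 in the anterior part, and the brighter Ascl2 probe by 0.05 ± 0.09 (SE, adjusted p = 1 for each). The other Ascl2 probe read 6.79, 6.76 and 6.87 in anterior Lhx1epiCKO samples and 6.66, 6.70 and 6.58 in anterior controls, values that did not overlap (as for 5.76% of all probes in this direction) but lay around the detection floor (0.16 ± 0.11, adjusted p = 1). In the posterior part the 7 differences lay between -0.13 and 0.11, with adjusted p from 0.772 to 0.973. The difference of the genotype effects between anterior and posterior parts lay between -0.34 and 0.20, with adjusted p from 0.981 to 0.997. The trophoblast lists had 0 called genes in each genotype contrast too, with 0 of 8 and 3 of 23 at an unadjusted p under 0.05 in the anterior part and 2 of 8 and 0 of 23 in the posterior part, and of the other lists 1 streak gene was higher and 1 anterior neuroectoderm gene lower in the anterior part of Lhx1epiCKO embryos. No further gene of a list was called between genotypes. Cdx2, higher by 1.18 ± 0.24 in the anterior part of Lhx1epiCKO embryos, did not pass (adjusted p = 0.157).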

How the data were processed

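RNA of the 12 pooled samples was measured on Illumina bead arrays. The authors deposited normalized log2 values. A detection p-value per probe was deposited beside each of them. GenomeStudio and limma are named, without versions, in the submitters' processing notes. The normalization and background correction are not given in the sources used here. A second deposited table held the same log2 values within 5.0e-09. The number of arrays limits the precision.

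Sample titles linked columns to samples. The filter on detection (below 0.05 on 3 or more arrays) kept 17041 of 30344 probes. All 12 arrays were fitted with limma 3.58.1 in R 4.3.3, with 1 mean per group, no covariate and no further scaling. Each SE uses 1 spread per probe, shared over all groups and moderated over all probes, so it does not follow a group's own SD. P-values were two-sided and adjusted by Benjamini-Hochberg over all probes, with a threshold of 0.05. The fit was tested on simulated data. A gene of a list was represented by its brightest kept probe. Named were the 9 members, the genes of smallest p in each list, and the probes with the highest Pearson correlation to the members. The fold against an undetected group is a lower bound for the measured means, from the lowest detected signal on its arrays, with no allowance for sampling error. Where the labels do not say that pools came from separate litters, p-values measure the spread between these pools. The members and lists were chosen with earlier results of these data known. Promoters and gene names came from RefSeq tables, and motifs were counted with Python. No column of another sample was used. Alternatives were other detection filters, quantile scaling, array weights, fitting 2 groups alone, a replicate block and leaving out samples.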

Additional observations from a re-analysis of the deposited data

How the results depend on the processing

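The anterior excess of the brightest Elf5 probe and of Esrrb was positive under all alternatives run. Leaving out samples could not change its sign, since anterior and posterior values did not overlap, so only its size is described. Leaving out 1 sample gave 0.62 to 1.27 (Lhx1epiCKO) and 0.85 to 1.89 (control) for Elf5. For Esrrb it gave 0.87 to 1.49 and 1.01 to 1.87 in the same order. No member was called between genotypes. The 12 probes called between anterior genotypes became 246 with array weights, 58 with the groups compared fitted alone and 51 without posterior control replicate 2 and posterior Lhx1epiCKO replicate 3 together, and 2 to 42 without 1 sample. The posterior 0 became 4 without both samples and 0 to 2 without 1, and the 0 for the change of the genotype effect became 1 with array weights and 0 to 3. Between embryo parts, the 513 probes called in controls became 1013 with array weights and 276 to 906 without 1 sample, and the 216 in Lhx1epiCKO embryos became 64 with 2 groups alone, 425 without both samples and 96 to 385 without 1. In the restricted trophoblast list, 2 genes were higher in controls with 2 groups alone, 4 were lower in controls with array weights (2 to 4 without 1 sample) and 1 was lower in Lhx1epiCKO embryos with 2 groups alone. In the shared list, 4 genes were lower in controls with 2 groups alone (2 to 4 without 1 sample), and in Lhx1epiCKO embryos 2 were higher with array weights or without both samples (0 to 2 without 1), 1 with the replicate block, and 1 was lower with 2 groups alone (1 to 2 without 1). The cause was not tested.

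Genotype differences of members that changed sign were all far from the threshold. Averaging both Ascl2 probes gave 0.0916 for its change of genotype effect (-0.064 to 0.018 without 1 sample). Without both samples the posterior difference was -0.0048 for Elf5 and 0.116 for Rhox9 (-0.16 to 0.11 without 1 sample). Without 1 sample the anterior difference ran from -0.83 to 0.21 for Elf5, -0.75 to 0.11 for Esrrb and -0.0093 to 0.066 for Rhox6, the posterior one of Rhox6 from -0.072 to 0.17, and the change of genotype effect from -0.88 to 0.16 for Elf5, -0.62 to 0.24 for Esrrb and -0.15 to 0.098 for Rhox6.

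The labels do not say whether samples that share a replicate number between groups belong together. The correlation of deviations between such samples was -0.041 to 0.246 and under 0.1 in most pairs. With so few arrays per group, these correlations cannot show whether the samples were paired. The main fit did not pair them. With a replicate block, 8, 0, 0, 373 and 176 probes were called in place of 12, 0, 0, 513 and 216. The block was the replicate number for the anterior and the posterior genotype contrasts, and the number within a genotype for the remaining contrasts. Probes near the floor, such as those of Ascl2 and Rhox9, have differences limited by signal over background.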
